A study of Mus musculus with 4 samples.

Results

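In the *Prdm13GFP* allele a GFP sequence with a stop was placed in exon 1 of *Prdm13*, which encodes a repressor of transcription. The insertion disrupts PRDM13, and GFP marks the cells that use the locus whether or not they make PRDM13. RNA-seq was analyzed from GFP+ cells sorted from E11.5 mouse neural tubes that were heterozygous (Prdm13 Het, *Prdm13GFP/+*) or homozygous (Prdm13 Homo, *Prdm13GFP/GFP*) for this allele. For each genotype the RNA of several embryos, on a mixed ICR and C57Bl/6 background, was combined into 1 pool, and 2 libraries were made from it. The libraries of a genotype are thus technical replicates, and all SDs (n = 2 libraries) and p-values below hold the spread between libraries and none between embryos. The *Prdm13GFP/+* cells that serve as controls carry 1 disrupted allele as well, and no sample here is without it.

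The genes described here are the D cyclins (*Ccnd1*, *Ccnd2*, *Ccnd3*), the kinases they bind (*Cdk4*, *Cdk6*) and the inhibitors of cyclin-dependent kinases (CDKs) of the Cip/Kip family (*Cdkn1a*, *Cdkn1b*, *Cdkn1c*) and the INK4 family (*Cdkn2c*, *Cdkn2d*). They were chosen by symbol, with earlier results of these data known, and all 10 are among the 24421 genes of the table. D cyclins accumulate in G1 in response to growth and patterning signals, activate CDK4 and CDK6, and lead to phosphorylation of RB proteins, which frees E2F factors to switch on the genes of S phase. INK4 proteins bind CDK4 and CDK6 and keep D cyclins off them. Cip/Kip proteins bind cyclin-CDK complexes, CDK2 complexes above all. In the neural tube, D cyclins mark cycling progenitors of the ventricular zone, while *Cdkn1c* (p57) and *Cdkn1b* (p27) are known for their rise as cells leave the cycle and become neurons.

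RefSeq promoter sequences (GRCm38.p6) were at hand for 7 of the 10 genes. They were not for *Ccnd1*, *Ccnd2* and *Cdkn1c*. Those of *Cdk4* and *Cdk6* are shown because they belong to partner kinases whose transcript levels lay far apart in these cells, and that of *Cdkn1b* because it is the inhibitor whose transcript fell. Each runs 5′ to 3′ over the 250 bases before a listed transcription start site, on the plus strand. The *Cdk6* start used (3343893) lies inside the annotated span of the gene, which begins at 3341004. Capitals mark any CACGTG (the E-box of Myc proteins), CAGCTG (an E-box of neural bHLH factors) or GGGCGG (the GC box of Sp1), searched on both strands. E2F-type sequences (TTTCCCGC or TTTGGCGC) were searched for and marked in the same way.
Cdk4 (chr10:127063285-127063534): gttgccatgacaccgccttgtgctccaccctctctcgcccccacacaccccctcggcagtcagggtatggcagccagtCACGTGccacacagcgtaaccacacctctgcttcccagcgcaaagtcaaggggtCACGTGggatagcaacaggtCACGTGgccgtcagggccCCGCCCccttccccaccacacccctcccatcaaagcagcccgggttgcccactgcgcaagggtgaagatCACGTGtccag
Cdk6 (chr5:3343643-3343892): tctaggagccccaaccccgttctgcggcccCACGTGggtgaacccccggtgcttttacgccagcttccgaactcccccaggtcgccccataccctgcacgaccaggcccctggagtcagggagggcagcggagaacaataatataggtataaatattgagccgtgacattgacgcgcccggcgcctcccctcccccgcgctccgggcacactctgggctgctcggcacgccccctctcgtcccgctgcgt
Cdkn1b (chr6:134920151-134920400): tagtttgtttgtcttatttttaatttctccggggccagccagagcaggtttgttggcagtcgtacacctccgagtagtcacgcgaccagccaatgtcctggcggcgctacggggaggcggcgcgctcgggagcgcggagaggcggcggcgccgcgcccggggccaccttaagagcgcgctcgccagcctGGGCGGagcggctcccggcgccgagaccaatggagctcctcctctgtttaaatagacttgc
In the *Cdk4* promoter, CACGTG occurred 4 times and GGGCGG 1 time. Of 32851 RefSeq promoters of the same length, 6.02% held at least 1 CACGTG and 7 (0.0213%) held at least 4. The *Cdk6* promoter held 1 CACGTG and no GGGCGG, and the *Cdkn1b* promoter held 1 GGGCGG, which 32.7% of all promoters have. None of the 10 promoters listed for these 7 genes held CAGCTG (13% of all promoters) or either E2F-type sequence (1.30%). These are matches of letters in a short window, not measured sites.

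Values are the RPKM that the authors deposited, which scale reads by exon length and by normalized library size. Whole reads behind these values could be solved for and summed to between 11824827 and 18808423 per library. Of the genes in the table, 12046 reached a mean of 1 RPKM in one genotype or the other and entered a limma fit on log2(RPKM + 0.1). That fit pools information on spread over genes. Permuting 2 and 2 libraries exactly gives no two-sided p below 0.333, so no such test was used. A gene is said to have risen or fallen in *Prdm13GFP/GFP* where its adjusted p was under 0.05. All 10 genes passed the filter, *Cdk6* through the *Prdm13GFP/+* libraries alone. *Prdm13* itself, whose GFP-bearing transcript still counts toward the gene, read 114 and 127 RPKM in *Prdm13GFP/+* and 310 and 324 RPKM in *Prdm13GFP/GFP*. These values do not measure the loss of the protein. The rise of *Prdm13* in the paper came from these same libraries, so the values do not check the labels independently. Of the defining markers of other cells, those of microglia and macrophages summed to at most 0.525 RPKM over 6 genes in any library and those of endothelium to at most 5.71 RPKM over 7 genes. The 7 mesenchymal markers summed to between 5.80 and 6.54 RPKM in *Prdm13GFP/+* and between 5.98 and 6.09 RPKM in *Prdm13GFP/GFP*, and 1 of the 2 that were tested rose (*Pdgfrb*, by 0.89 on the log2 scale). The 7 erythroid markers summed to between 47.6 and 50.5 RPKM over the 4 libraries, nearly all of it from embryonic globins, and *Hba-a1* was listed at 0. Among markers of neural crest and sensory ganglia, *Neurod1* rose by 0.42 and *Foxd3* fell by 1.41 on the log2 scale. The paper lists *Foxd3* among the transcription factors lowered in the mutant dorsal neural tube, a value that came from these same libraries. In which cells *Foxd3* fell was not tested. The part of any of these other cell types in the results below was not tested.

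Of the 10 genes, 1 rose (*Ccnd2*) and 3 fell (*Ccnd1*, *Cdk6* and *Cdkn1b*) in *Prdm13GFP/GFP*, and 6 did not pass the test. Over all 12046 genes 19.7% passed it, 9.76% higher and 9.95% lower. With a fold of at least 1.5 added, 2 genes remained, *Ccnd1* and *Cdk6*, both lower. Of all genes 6.33% passed in that way, 3.65% higher and 2.67% lower. *Cdk6* had entered the test only through the *Prdm13GFP/+* libraries, where it was higher, so its place in these counts is tied to the filter. The libraries of the 2 genotypes did not overlap for 8 of the 10 genes, 4 higher and 4 lower, which was also true of 62.1% of all genes tested, 31.7% higher and 30.3% lower. The median log2 fold change was 0.0082 over the 10 genes and 0.010 over all genes, and the median of the absolute change was 0.22 and 0.13.

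**Figure D1:**
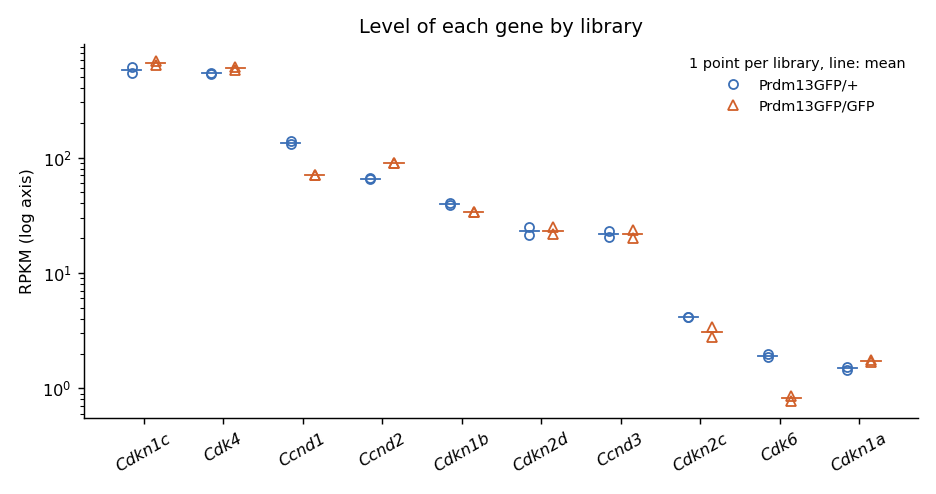
RPKM (log axis) of each of the 10 genes in each library, with circles for *Prdm13GFP/+*, triangles for *Prdm13GFP/GFP* and a line at the mean of 2 libraries. *Cdkn1c* and *Cdk4* lie above 500 RPKM in every library, and *Ccnd1* and *Ccnd2* change places between the genotypes.

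The genes spanned a wide range of levels, which RPKM allows to be compared since it is per length. In *Prdm13GFP/+* the order by mean RPKM was *Cdkn1c*, *Cdk4*, *Ccnd1*, *Ccnd2*, *Cdkn1b*, *Cdkn2d*, *Ccnd3*, *Cdkn2c*, *Cdk6* and *Cdkn1a*. The libraries of *Cdkn2d* and *Ccnd3* overlapped. Those of *Cdkn1c* and *Cdk4* did not, but the lower *Cdkn1c* library (546 RPKM) lay just above the higher *Cdk4* library (545 RPKM). *Cdkn1c* and *Cdk4* stood at percentiles 99.4 and 99.3 of all genes tested by mean RPKM, *Ccnd1* and *Ccnd2* at 94.96 and 92.4, and *Cdk6* and *Cdkn1a* at 5.83 and 7.80. In *Prdm13GFP/GFP* the order differed in that *Ccnd2* stood above *Ccnd1* and *Cdkn1a* above *Cdk6*.

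Among the D cyclins, *Ccnd1* (gene ID 12443, chromosome 7 from 144929931 to 144939831 of GRCm38), the cyclin D of many dividing progenitors, had 130.4 and 139 RPKM in *Prdm13GFP/+* and 70.5 and 70.0 RPKM in *Prdm13GFP/GFP*. Both mutant libraries lay well under both controls. Behind the values stood 5727 and 9675 control reads and 4352 and 3634 mutant reads. The mean fell from 135 ± 6.17 to 70.3 ± 0.371 RPKM (SD, n = 2), 1.92-fold, which is -0.94 as a log2 fold change (standard error 0.0493, adjusted p = 8.04e-05), the value of rank 186 from the lowest among 12046 genes. Exons of *LTO1* (*Oraov1* in the table) on the opposite strand share 1100 bases with exons of *Ccnd1* in the GENCODE annotation, and the strand setting of the counting is not given in the sources used here. *Oraov1* had a mean of 15.8 RPKM in *Prdm13GFP/+* and 14.7 RPKM in *Prdm13GFP/GFP* (log2 fold change -0.10, adjusted p = 0.266).

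*Ccnd2* (gene ID 12444, chromosome 6 from 127125162 to 127152188) moved the other way. It had 64.6 and 66.7 RPKM in *Prdm13GFP/+* and 88.9 and 90.4 RPKM in *Prdm13GFP/GFP*. The genotypes did not overlap, and the libraries within each differed by 3.38% and 1.68%. The rise of 1.36-fold, or 0.45 on the log2 scale (standard error 0.0453, 95% interval 0.34 to 0.56, adjusted p = 0.00139), stayed short of 1.5-fold.

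*Ccnd3* (gene ID 12445, chromosome 17 from 47505051 to 47599689), the third and least abundant D cyclin, had 20.5 and 23.0 RPKM in *Prdm13GFP/+* and 20.1 and 23.6 RPKM in *Prdm13GFP/GFP*. The genotypes overlapped almost fully, and the log2 fold change of 0.0054 had a 95% interval from -0.22 to 0.23 (adjusted p = 0.974).

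The D cyclin transcripts differed in makeup between the genotypes. *Ccnd1* made up 60.5% and 60.8% of summed D cyclin RPKM in *Prdm13GFP/+* and 39.3% and 38.0% in *Prdm13GFP/GFP*. *Ccnd2* made up 29.97% and 29.2% in *Prdm13GFP/+* and 49.5% and 49.1% in *Prdm13GFP/GFP*, where it was the most abundant D cyclin. *Ccnd3* made up 9.53% and 10.05% in the control libraries and 11.2% and 12.9% in the mutant libraries. The ratio of *Ccnd1* to *Ccnd2* was 2.02 and 2.08 in *Prdm13GFP/+* against 0.793 and 0.775 in *Prdm13GFP/GFP*. The sum of the 3 cyclins was 215.5 and 229 RPKM in *Prdm13GFP/+* and 179.5 and 184 RPKM in *Prdm13GFP/GFP*, lower by 18.2% on the means. Sums and ratios over these genes are given as values with no test.

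**Figure D2:**
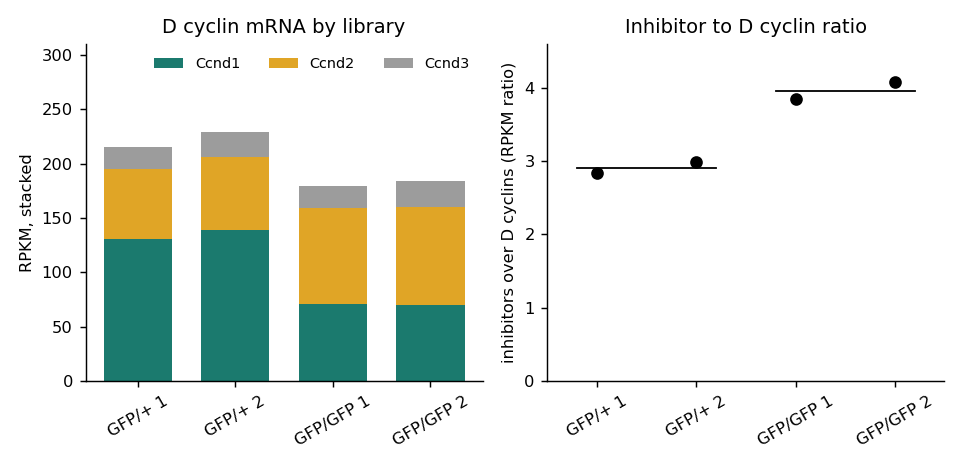
Left, RPKM of *Ccnd1*, *Ccnd2* and *Ccnd3* stacked for each library. Right, the ratio of summed inhibitor RPKM (3 Cip/Kip and 2 INK4 genes) to summed D cyclin RPKM, 1 point per library with a line at the mean of each genotype. *Ccnd1* is the largest block in both *Prdm13GFP/+* libraries and *Ccnd2* in both *Prdm13GFP/GFP* libraries, and the ratio lies between 2.84 and 2.98 in the former and between 3.84 and 4.08 in the latter.

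Of the kinases, *Cdk4* (gene ID 12567, chromosome 10 from 127063535 to 127067288) carried nearly all of the transcript. It had 533 and 545 RPKM in *Prdm13GFP/+* and 579 and 606 RPKM in *Prdm13GFP/GFP*. The mutant libraries were both above the controls, but the log2 fold change of 0.14 (standard error 0.0432, 95% interval 0.032 to 0.24) had an adjusted p of 0.0739. Exons of *Tspan31*, which read between 53.2 and 58.7 RPKM, share 641 bases with annotated *Cdk4* exons on the opposite strand. Annotated opposite-strand exons also touch those of *Ccnd2* (372 bases at most with 1 gene), *Ccnd3* (361, with *Bysl*), *Cdk6* (368), *Cdkn1a* (273) and *Cdkn1c* (625). How reads of the partners were handled there is not known, since the strand setting of the counting is not given.

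*Cdk6* (gene ID 12571, chromosome 5 from 3341004 to 3531008) was 1.85 and 1.97 RPKM in *Prdm13GFP/+* and 0.772 and 0.858 RPKM in *Prdm13GFP/GFP*. The reads behind these values are known up to a common factor. They were 265 and 445 in the controls and 155 and 145 in the mutants over 12350 bases of exon, the solution nearest to the annotated length of 11525 bases, or as few as 53 and 89 against 31 and 29 over 2470 bases. The fall was 2.34-fold on the mean RPKM. The log2 fold change, which is smaller in size because 0.1 RPKM was added first, was -1.14 (standard error 0.189, 95% interval -1.59 to -0.68, adjusted p = 0.00924). It was the most negative of the 10 genes. With a pseudocount of 1 RPKM in place of 0.1 it was -0.68. *Cdk4* thus exceeded *Cdk6* by a factor of 287 and 277 in the *Prdm13GFP/+* libraries and of 750 and 706 in the *Prdm13GFP/GFP* libraries.

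Among the Cip/Kip inhibitors, *Cdkn1c* (gene ID 12577, chromosome 7 from 143458339 to 143461059), an imprinted gene and the inhibitor typical of newborn neurons, was the most abundant of the 10 genes. It had 546 and 612 RPKM in *Prdm13GFP/+* and 630.2 and 687 RPKM in *Prdm13GFP/GFP*. The mutant libraries lay above the controls, yet the second library of each genotype exceeded the first by 12.1% and 8.96%, nearly as much as the genotypes differed. The log2 fold change was 0.19 (standard error 0.0684, 95% interval 0.023 to 0.35, adjusted p = 0.107). The genes around it on chromosome 7 did not pass the test either. Of 11 genes listed for this imprinted domain, 4 were over the filter (*Nap1l4*, *Cd81*, *Tssc4* and *Osbpl5*), with log2 fold changes between 0.047 and 0.10, and the noncoding RNA *Kcnq1ot1*, which silences the domain in cis, was at 0.630 and 0.632 RPKM in *Prdm13GFP/+* and 1.00 and 0.668 RPKM in *Prdm13GFP/GFP*.

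*Cdkn1b* (gene ID 12576, chromosome 6 from 134920401 to 134925525), which encodes p27, had 39.1 and 40.5 RPKM in *Prdm13GFP/+* and 33.5 and 34.0 RPKM in *Prdm13GFP/GFP*. The mutant libraries were close to each other and under both controls. The fall was small, 1.18-fold, or -0.24 on the log2 scale (standard error 0.0491, 95% interval -0.36 to -0.12, adjusted p = 0.0195). It did not pass once 1 library was left out, with an adjusted p of 0.0627 and 0.0960 without the first and the second *Prdm13GFP/+* library, and of 0.103 and 0.105 without the first and the second *Prdm13GFP/GFP* library.

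*Cdkn1a* (gene ID 12575, chromosome 17 from 29090979 to 29100722), which encodes p21 and is induced by p53, was scarce, with 1.45 and 1.54 RPKM in *Prdm13GFP/+* and 1.76 and 1.70 RPKM in *Prdm13GFP/GFP*. These values rest on 34, 57, 58 and 47 reads. The log2 fold change of 0.20 had a wide interval, -0.17 to 0.57 (adjusted p = 0.414). The mutant libraries lay above the controls, and the adjusted p was between 0.108 and 0.626 over the alternatives tried. In the 15 genes of a p53 response list, 12 were over the filter, 2 rose (*Btg2*, an antiproliferative gene, by 0.33 on the log2 scale, and the apoptosis effector *Bax*, by 0.20) and 3 fell (*Sesn2* by 1.28, *Plk2* by 0.55 and *Gtse1* by 0.30), with a median of -0.051, where 19.7% of all genes passed in either direction. *Sesn2* also responds to amino acid and endoplasmic reticulum stress.

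By these levels *Cdkn1c* made up between 93.1% and 95.1% of summed Cip/Kip RPKM in every library. The ratio of *Cdkn1c* to *Cdkn1b* was 13.96 and 15.1 in *Prdm13GFP/+* and 18.8 and 20.2 in *Prdm13GFP/GFP*. The genotypes did not overlap in this ratio.

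Of the INK4 inhibitors, *Cdkn2d* (gene ID 12581, chromosome 9 from 21288459 to 21291421), p19, known for its place in postmitotic neurons, was the more abundant. It had 21.4 and 24.8 RPKM in *Prdm13GFP/+* and 21.6 and 24.9 RPKM in *Prdm13GFP/GFP*. The libraries of the same number were nearly equal across genotypes, and the log2 fold change of 0.011 had a 95% interval from -0.22 to 0.24 (adjusted p = 0.950).

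*Cdkn2c* (gene ID 12580, chromosome 4 from 109660876 to 109666756), p18, known from progenitors late in their divisions, had 4.18 and 4.17 RPKM in *Prdm13GFP/+* and 2.78 and 3.41 RPKM in *Prdm13GFP/GFP*. Both mutant libraries were lower, on 102 and 105 reads, than the controls, on 109 and 172. On the log2 scale the difference was -0.43 (standard error 0.120, 95% interval -0.71 to -0.14), with an adjusted p of 0.0513, just over the threshold. The remaining INK4 genes were at or near 0. *Cdkn2a* was listed at 0 in all 4 libraries, and *Cdkn2b* in all but the second *Prdm13GFP/GFP* library, where it had 0.0525 RPKM.

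Set against each other, the summed inhibitors exceeded the summed D cyclins 2.84- and 2.98-fold in the *Prdm13GFP/+* libraries and 3.84- and 4.08-fold in the *Prdm13GFP/GFP* libraries. Most of that ratio is *Cdkn1c*. Without it the ratio was 0.307 and 0.310 in *Prdm13GFP/+* and 0.332 and 0.348 in *Prdm13GFP/GFP*.

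**Figure D3:**
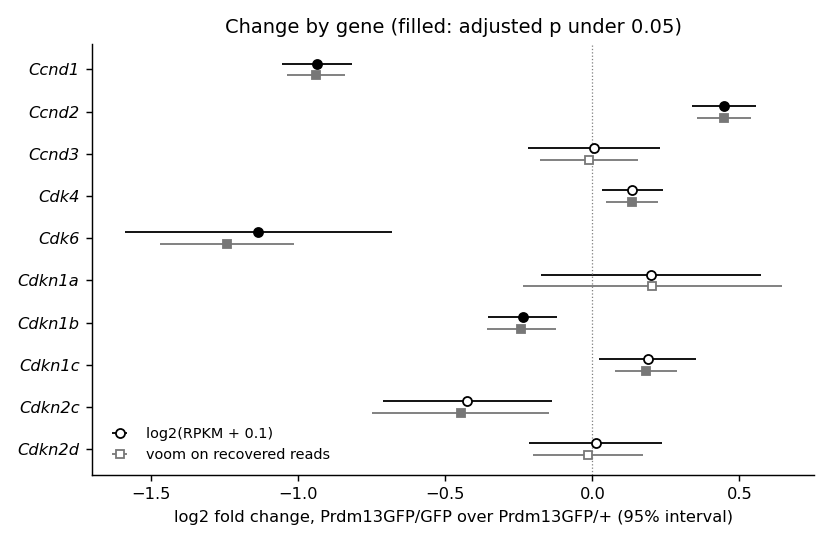
Log2 fold change of *Prdm13GFP/GFP* over *Prdm13GFP/+* with 95% intervals for each gene, by limma on log2(RPKM + 0.1) (circles) and by limma voom on the recovered reads (squares), filled where the adjusted p is under 0.05. Both place *Ccnd1* near -0.94 and *Ccnd2* near 0.45, and *Cdk4*, *Cdkn1c* and *Cdkn2c* are filled by voom alone.

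On the recovered reads limma voom passed the same 4 genes in the same directions and added *Cdk4* (adjusted p = 0.0220) and *Cdkn1c* (adjusted p = 0.00969) as higher and *Cdkn2c* (adjusted p = 0.0249) as lower, 7 of the 10 genes, where 27% of all genes passed. With the fewest whole reads that the RPKM allow for each gene, the same 7 passed, *Cdk6* with an adjusted p of 0.000115.

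**Figure D4:**
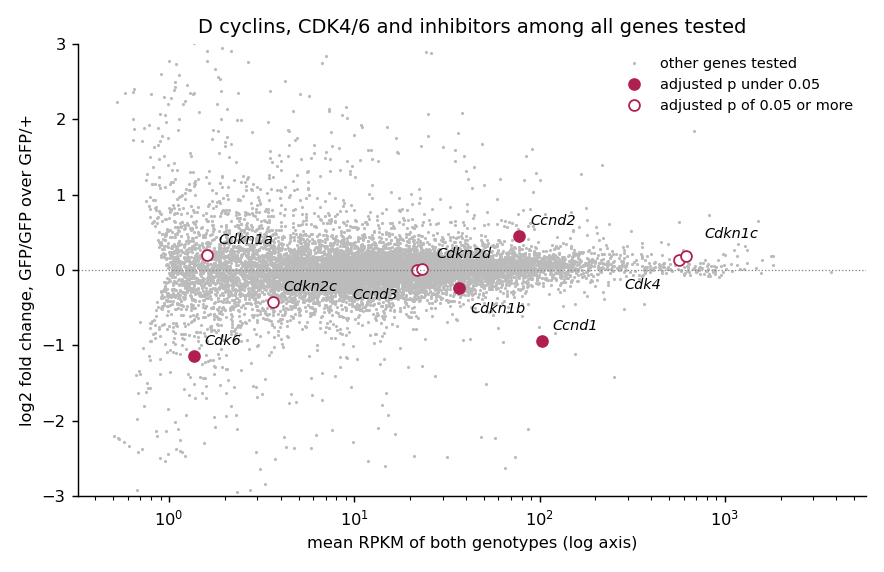
Log2 fold change against mean RPKM (log axis) for the 12046 genes tested, with the 10 genes as large points, filled where the adjusted p is under 0.05. *Ccnd1* and *Cdk6* stand apart from most genes of their level, while *Ccnd3*, *Cdkn2d* and *Cdk4* lie within the mass of points. The 36 genes beyond the vertical axis limits are not drawn.

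The gene lists of this report were chosen with earlier results of these data known, so their counts beside the shares of all genes are no test. Of 19 genes of the RB family, E2F factors and partners, 5 fell, 0 rose and 14 did not pass (median log2 fold change -0.13). Over all genes 9.95% fell and 9.76% rose. The repressor-type E2Fs *E2f7* (from 10.9 ± 0.212 to 7.91 ± 0.334 RPKM, log2 fold change -0.45, adjusted p = 0.00549) and *E2f8* (log2 fold change -0.42) and the activator *E2f1* (log2 fold change -0.32) were among those that fell, as was *Lin54*, a subunit of the DREAM complex (log2 fold change -0.39). Of 16 later cyclins, CDKs and their regulators, 5 fell and 0 rose (median -0.14), against the same 9.95% and 9.76%. The log2 fold changes of cyclin A2 and B1, which drive S phase and mitosis, were -0.32 (*Ccna2*) and -0.34 (*Ccnb1*), that of *Ccnf* was -0.39 and that of the phosphatase *Cdc25c* was -0.36. Of 20 genes of DNA replication and mitosis, 8 fell and 0 rose (median -0.15, again beside 9.95% and 9.76% of all genes), led by *Mki67*, the gene of the Ki67 antigen (from 53.6 ± 2.08 to 36.4 ± 0.831 RPKM, log2 fold change -0.56, adjusted p = 0.00101), *Cenpf* (-0.55) and *Top2a* (-0.45). No gene of these 3 lists passed the test with a change of 1.5-fold, and *Ccnd1* fell by more than any of their genes.

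Of 13 tested genes that act on the stability of D cyclins or p27, *Rbx1*, a ubiquitin ligase subunit, rose by 0.18 on the log2 scale. *Skp2*, which marks p27 for destruction, fell by 0.22, and *Cks2*, a small CDK-binding protein, fell by 0.17. The other 10 did not pass, among them *Cks1b*, the cofactor of SKP2 in marking p27 (log2 fold change -0.087, adjusted p = 0.469). Of all genes tested 19.7% passed, and 3 of 13 is near that share. CDK5 is a kinase of postmitotic neurons that works without cyclins. Its activators *Cdk5r2* (p39, from 34.0 ± 1.84 to 46.4 ± 2.75 RPKM, log2 fold change 0.45, adjusted p = 0.00553) and *Cdk5r1* (p35, log2 fold change 0.22) both rose, where 9.76% of all genes rose. The other 5 tested genes of that list did not pass. They were *Cdk5* itself (log2 fold change 0.20, adjusted p = 0.0573), *Cdk16*, *Cdk17*, *Ccny* and *Ccnyl1*.

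**Figure D5:**
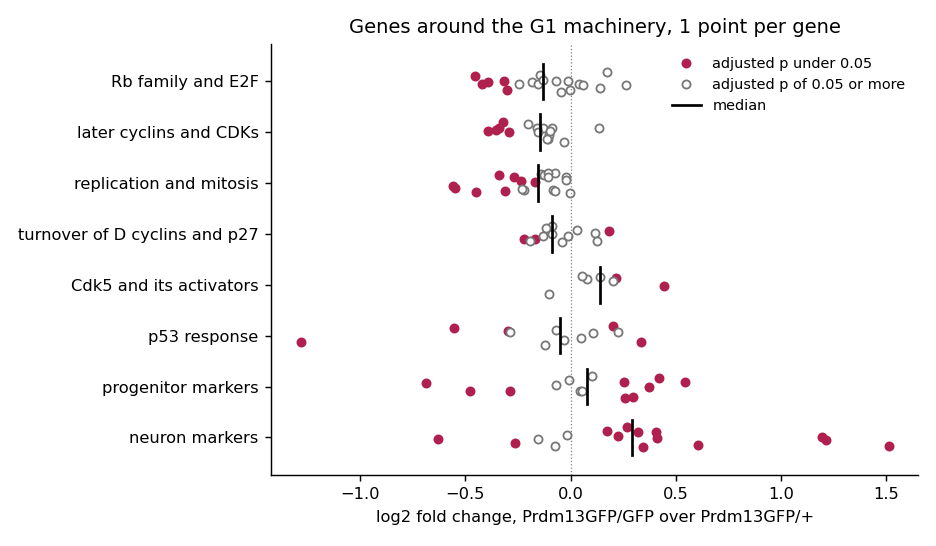
Log2 fold change of *Prdm13GFP/GFP* over *Prdm13GFP/+* for the tested genes of 8 lists, 1 point per gene, filled where the adjusted p is under 0.05, with a bar at the median of each list. No gene of the first 3 lists is filled to the right of 0, while neuron markers reach past 1.5 on the right.

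Markers of progenitors and of neurons moved beside these genes. Of 16 neuron markers 11 rose and 2 fell (median log2 fold change 0.29, against 0.010 over all genes). Of all genes 9.76% rose and 9.95% fell. The summed level of the neuron markers was 2228 and 2279 RPKM in *Prdm13GFP/+* and 2877 and 2974 RPKM in *Prdm13GFP/GFP*. *Tubb3* was the largest part of that sum, with 1017 and 1062 RPKM in *Prdm13GFP/+* and 1265 and 1372 RPKM in *Prdm13GFP/GFP*. *Nefl*, *Nefm* and *Gap43* rose by 1.51, 1.21 and 1.20 on the log2 scale, and *Snap25* fell by 0.63. Of 14 progenitor markers 6 rose, among them *Sox3* (0.54), *Hes5* (0.42) and *Notch1* (0.37), and 3 fell, *Sox1*, *Sox2* and *Hes1*, with changes of -0.68, -0.48 and -0.29. The summed level of the progenitor markers was between 2638 and 2660 RPKM in *Prdm13GFP/+* and between 2669 and 2770 RPKM in *Prdm13GFP/GFP*. Its largest parts were *Vim* (932 and 932 RPKM in *Prdm13GFP/+*, 947 and 986 RPKM in *Prdm13GFP/GFP*) and *Fabp7*, neither of which passed. Fewer cells of a type and less RNA per cell cannot be told apart in these sorted pools, and the part of the mix of progenitors and neurons in the changes of *Ccnd1*, *Ccnd2*, *Cdk6* and *Cdkn1b* was not tested.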

How the data were processed

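The authors aligned RNA-seq reads to mm10 with TopHat2 2.1.0 on RefSeq genes, counted them over exons with featureCounts, normalized them by TMM in edgeR 3.6.8 and deposited RPKM values, which were used with no further scaling. Since 1 read of a gene adds a fixed amount to its RPKM, lengths and library sizes were solved for from the deposited RPKM values, guided by GENCODE vM21 exon lengths within RefSeq spans. This gave whole reads for 99.7% of 19200 genes above 0, within 0.001 reads for low genes. Where an annotated length was at hand, 79.6% of the solved lengths lay within 5% of it. The solving was also tried on data simulated from the solved reads and lengths, which cannot reveal a wrong length. RPKM fix the reads of a gene only up to a common factor, and the solution nearest to the annotated length was taken.

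The test took genes whose mean reached 1 RPKM in one genotype or the other. They were tested on log2(RPKM + 0.1), a scale that understates changes of low genes, with lmFit and eBayes with a trend (limma 3.58.1 in R 4.3.3). The test was two-sided, and p-values were adjusted over all tested genes by the Benjamini-Hochberg method. The same test was tried on simulated libraries. Genotypes were taken from the submitters' labels. Named genes are the 10 members, *Prdm13*, and from each list at most 4 genes a direction that passed, by size of change. Not every marker of neural crest and sensory ganglia is reported here. Genes given as not passing or listed at 0, overlapping genes, *Tubb3* and *Kcnq1ot1* were picked with their values in view. The members and lists were chosen with earlier results of these data known. Alternatives were other pseudocounts, filters and scalings, each library left out, the replicate number as a block, eBayes with no trend, and limma voom on recovered reads, also with the fewest reads each gene allows. Tables were handled in Python 3.11.15 with pandas 2.3.3.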

Additional observations from a re-analysis of the deposited data

How the results depend on the processing

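The changes of *Ccnd1*, *Ccnd2* and *Cdk6* kept their direction in all 14 alternatives and passed in 13, with log2 fold changes from -0.99 to -0.89, from 0.40 to 0.47 and from -1.24 to -0.68. The exception was the test of all 24421 genes with no filter on RPKM, where 0 of the 10 genes passed as higher, 0 as lower and 0 with 1.5-fold, and 51 genes passed in all. The many genes at 0 in every library, which have no spread, enter that fit. *Cdk6* met the filters of the other alternatives only through the *Prdm13GFP/+* libraries, where it was higher, so its passing there is tied to those filters. *Cdkn1b* passed in 8 of 14. *Cdkn2c* passed in 5, and *Cdk4* and *Cdkn1c* in 3. *Ccnd3* and *Cdkn2d* passed in none, and their sign changed between alternatives (from -0.11 to 0.12 for *Ccnd3* and from -0.094 to 0.12 for *Cdkn2d*). Where 2375 genes passed with all 4 libraries, 1014 and 1029 passed without the first and the second *Prdm13GFP/+* library and 931 and 619 without the first and the second *Prdm13GFP/GFP* library, each time with 1 of the 10 genes higher and 2 lower. With the replicate number as a block, 3200 genes passed, and 3 of the 10 genes were higher (*Ccnd2*, *Cdk4* and *Cdkn1c*) and 4 lower. The sources do not say whether libraries of the same number were handled together. Differences between the second and the first library correlated by 0.0475 between genotypes, across genes. Voom on recovered reads also gave 3 higher, and 3234 genes in all. Voom on the fewest whole reads, an alternative chosen after seeing the data, gave 3 higher and 3260 genes.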
